A study of Mus musculus with 7 samples.

Results

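The 49 genes described here encode the receptors for serotonin (14 genes, Htr1a to Htr7), dopamine (5 genes, Drd1 to Drd5), adrenaline and noradrenaline (9 genes, Adra and Adrb), and acetylcholine, the last split into muscarinic receptors (5 genes, Chrm1 to Chrm5) and subunits of nicotinic receptors (16 genes, Chrn). They were taken by gene symbol: all rows of the deposited count table whose symbol belongs to these families. This gave 49 of 35976 gene symbols. The families were chosen with earlier results of these data known. RNA was sequenced from neurons that a papain digest and a magnetic isolation kit had enriched from the amygdala of male C57BL/6J mice, in 7 libraries. A viral vector (AAV) delivered a guide RNA against Nr2f2, the gene of a nuclear receptor transcription factor (sgNr2f2, 3 libraries), or a control guide against the Rosa locus (sgRosa, 4 libraries). Cas9 was expressed from the neuronal Hsyn promoter. Every mouse of both groups went through 7 days of restraint in tubes, then fear conditioning (1 day), then extinction training (3 days), so an unstressed group is not among the libraries. Age is not given in the labels, and they do not say whether a library is 1 animal or a pool, so p-values measure only the spread between these libraries, which may be technical.

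Most of these receptors are G protein-coupled: the receptor activates Gs to raise cyclic AMP, Gi to lower it or Gq to release calcium. The exceptions are Htr3 and the nicotinic receptors, which are ligand-gated cation channels built from 5 subunits. In the amygdala, serotonin, dopamine, noradrenaline and acetylcholine arrive from cell groups elsewhere in the brain and tune the excitability of projection neurons and interneurons during threat and its extinction. Which receptors a cell carries sets whether such a signal excites or inhibits it.

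Nr2f2 itself lay at 19.8, 16.5, 11.3 and 13.1 CPM (counts scaled to a fixed library size with TMM factors) in sgRosa replicates 1 to 4, against 11.9, 12 and 11.6 CPM in those of sgNr2f2. The log2 fold change of sgNr2f2 against sgRosa was -0.36 (SE 0.37, edgeR adjusted p = 0.905), and all 3 sgNr2f2 values lay within the sgRosa range. The transcript level thus does not check the labels, and whether the locus was edited was not tested. Library totals ran from 6266897 to 20928677 counts. The neuron label was checked against 15 pan-neuronal genes (Snap25, Rbfox3 and others): all had counts in every library, but their summed level was 794 to 4143 CPM, against 22954 to 408057 CPM for 10 oligodendrocyte genes. The sgRosa replicate 4 library stood apart. It had the smallest total, and 31591 CPM of 5 erythroid genes against 1049 to 3063 CPM in the other 6 libraries. Its pan-neuronal sum was 4143 CPM, against 794 to 1176 CPM in the others. These genes did not move together there. Most were at their highest, such as Gap43 (996 CPM against 73.9 to 140 CPM), but Snap25 was at its lowest (36.9 CPM against 128 to 206 CPM). Values of this library scaled to pan-neuronal genes rest on that mix. Sums of 8 meningeal fibroblast genes (7.90 to 91.7 CPM in sgRosa, 3.31 to 11.9 CPM in sgNr2f2) and of 10 pericyte and smooth muscle genes (157 to 709 and 102 to 342 CPM) were lower on average in sgNr2f2. Of the 10 oligodendrocyte genes, 10 had a log2 fold change above 0 (median 0.54), and 1 was below 0 without sgRosa replicate 4. Of the 15 pan-neuronal genes, 13 were below 0, and 8 without that library. No gene of these lists passed edgeR's adjusted test. The part of these cell types in the receptor levels was not tested. Many results are also given without sgRosa replicate 4. In such bulk libraries fewer cells of a type and less RNA per cell cannot be told apart.

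The receptor genes were rare transcripts. Together they held 0.00974% of all counts, and 10 of the 49 had under 10 counts over the 7 libraries while 19 had at least 100. Counts were present in all 7 libraries for 19 genes, in some for 28, and in none for 2, Chrna10 and Chrng. A share of 38.8% of the receptor genes and 38.6% of all symbols was thus seen in every library. For a gene at 0, counting error alone allows a level of up to 0.141 to 0.409 CPM per library (3 counts).

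**Figure D1:**
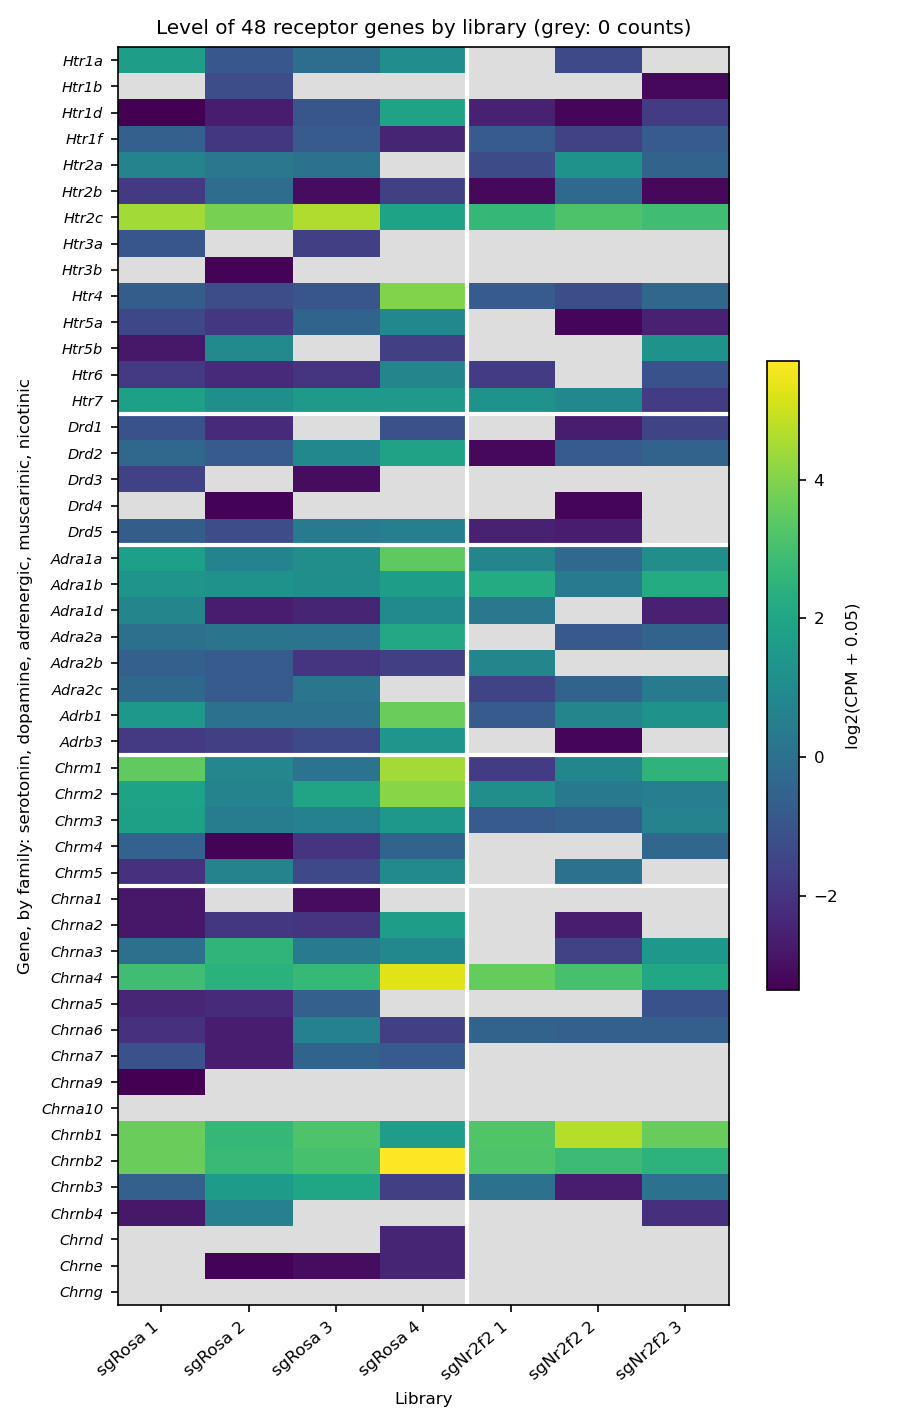
Level of 48 of the 49 receptor genes (rows, ordered by family) in each library (columns), as log2 of CPM plus a small constant, with 0 counts in grey. Grey cells are more frequent in the 3 sgNr2f2 columns, with 17 to 24 genes at 0, than in the 4 sgRosa columns, with 7 to 13.

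Fewer receptor genes were detected in the sgNr2f2 libraries. With 1 or more counts required, 42, 42, 39 and 36 of 49 genes were present in sgRosa replicates 1 to 4, against 25, 31 and 32 in those of sgNr2f2. The groups did not overlap, although the smallest library of all was on the sgRosa side. Thinning every library to 6266897 counts gave expected numbers of 38.7, 35.3, 34.4 and 36 genes in sgRosa and 22.2, 26.7 and 28.3 in sgNr2f2. The same held with 5 or more counts required (26 to 33 genes against 19 to 25). Over all symbols, detection at equal depth was also lower in sgNr2f2, at 15502 to 16509 genes against 17029 to 18644, so the lower detection was not restricted to these receptors.

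**Figure D2:**
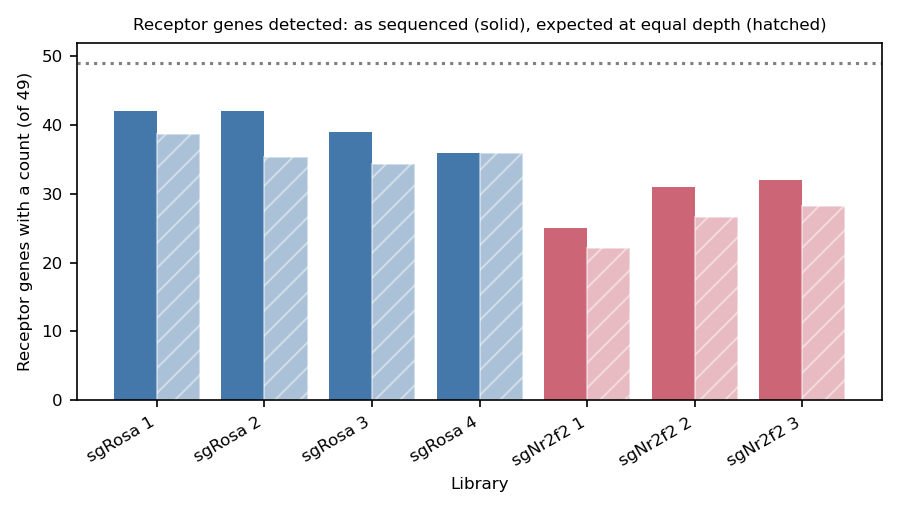
Number of receptor genes with at least 1 count in each library (y axis, of 49, dotted line), as sequenced in solid bars and as computed after thinning to the smallest library in hatched bars. At equal depth the 4 sgRosa libraries lie between 34.4 and 38.7 genes and the 3 sgNr2f2 libraries between 22.2 and 28.3.

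Of the 47 receptor genes with any count, 8 (17.0%) had 0 counts in all sgNr2f2 libraries and counts in sgRosa, which is close to the 17.6% of all detected symbols with that pattern. They were Htr3a, Htr3b, Drd3, Chrna1, Chrna7, Chrna9, Chrnd and Chrne. None had counts only in sgNr2f2, a pattern of 3.16% of all detected symbols.

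Per length, Chrnb1, Chrna4, Chrnb2 and Htr2c were among the receptor genes with the highest levels. Their mean over 7 libraries, in CPM per kilobase of annotated exon, was 4.44 for Chrnb1 (range 1.24 to 10.3), 2.34 for Chrna4 (0.820 to 7.68), 1.73 for Chrnb2 (0.672 to 6.23) and 1.33 for Htr2c (0.394 to 2.61). The ranges of these 4 overlapped. The order below Chrnb1 rested on sgRosa replicate 4: without it the means were 4.97 for Chrnb1, 1.48 for Htr2c, 1.45 for Chrna4 and 0.982 for Chrnb2. Adra1b (0.869, and 0.859 without that library) and Htr7 (0.658 and 0.627) hardly moved. Chrm1 went from 0.955 to 0.551 CPM per kilobase, Adrb1 from 0.911 to 0.452, Chrm2 from 0.730 to 0.379 and Htr4 from 0.550 to 0.105.

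The comparison of sgNr2f2 with sgRosa asks which of these receptors differ in level between mice given either guide. The low-count filter kept 25 of the 49. No receptor gene passed edgeR's quasi-likelihood test at an adjusted p of 0.05 (0 of 25, smallest adjusted p = 0.868), where 0.0% of 14412 genes passed. At an unadjusted p under 0.05, 3 were lower in sgNr2f2 (Drd5, Htr1a and Chrm2), against 2.82% of all genes, and 0 higher, against 2.18%. Drd5 had 2, 2 and 0 counts in sgNr2f2 and Htr1a 0, 6 and 0. Both passed the filter only through sgRosa, so they could come out only as lower. These numbers, here and in the other fits with this filter, are therefore a description. DESeq2 called 0 of 25 as well (smallest adjusted p = 0.219), but gave Htr4 no adjusted p. Of the 14020 genes to which it gave an adjusted p, it called 0.0357% lower and 0.0143% higher. At an unadjusted p under 0.05 it gave 7 receptor genes lower and 0 higher, against 4.74% and 3.06% of all genes. With limma-voom 0 were called, and 2 lower and 0 higher had such a p, against 2.12% and 2.41%. With no low-count filter, edgeR called 0 of 47 and gave 10 lower and 0 higher at an unadjusted p under 0.05, against 5.08% and 1.7%.

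Most receptor genes nevertheless had a lower mean in sgNr2f2. This was so for 38 of 47 with any count (80.9%), against 62.1% of all detected symbols, and for 37 of 46 (80.4%) against 57.1% without sgRosa replicate 4. By family these were 11 of 14 serotonin, 4 of 5 dopamine, 6 of 9 adrenergic, 5 of 5 muscarinic and 12 of 14 nicotinic genes. Among the 25 genes past the filter, 20 had a log2 fold change below 0 (56.2% of all genes tested), with a median of -1.31 against -0.11. A low-level gene can pass that filter only through the group where it is high, so the numbers over these 25 are a description. Without sgRosa replicate 4 they were 15 of 19 and -0.87 (52.5% and -0.03 over all genes). With no filter they were 38 of 47 and -1.53 (63.0% and -0.32 over all genes). With levels scaled to the pan-neuronal genes instead of all counts they were 19 of 25 and -0.73 (35.2% and 0.20), a scaling that moved the median of all genes from -0.11 to 0.20. At an unadjusted p under 0.05, 1 receptor gene (Drd5) was then lower and 0 higher, against 0.479% and 1.98% of all genes.

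**Figure D3:**
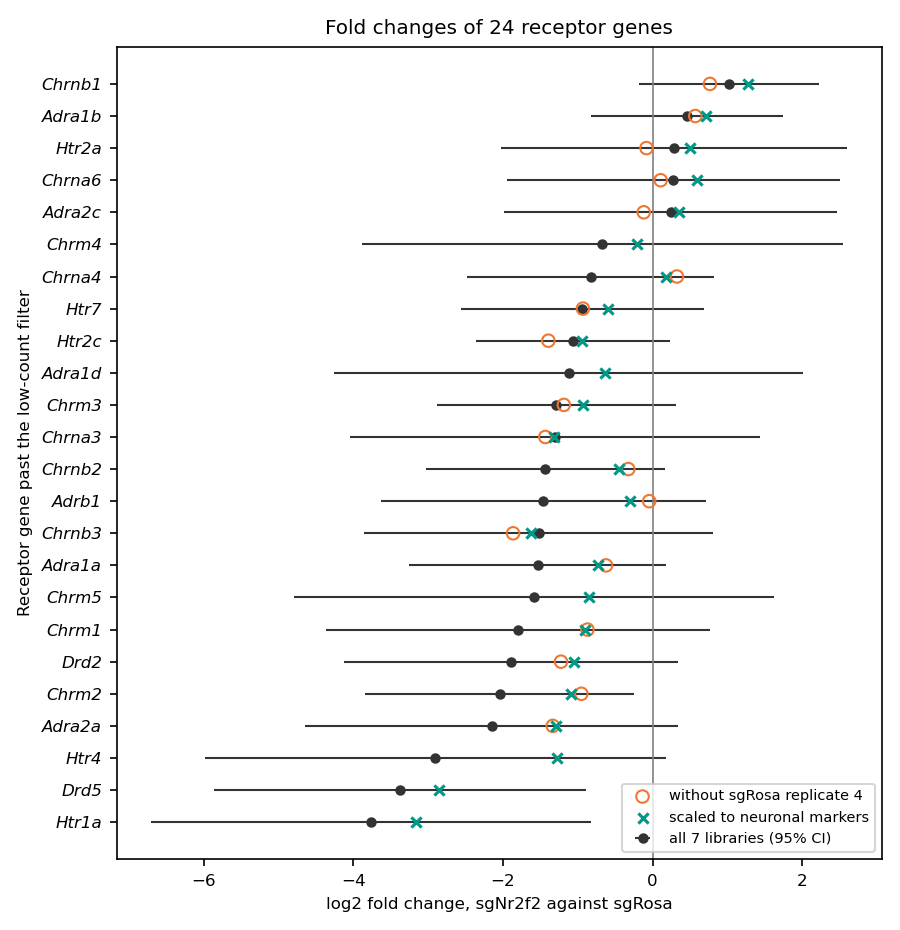
Log2 fold change of sgNr2f2 against sgRosa (x axis) for 24 of the 25 receptor genes past the low-count filter (y axis), with 95% confidence intervals (black), without sgRosa replicate 4 (open circles, missing where a gene no longer passed the filter) and scaled to pan-neuronal genes (crosses). Most points lie left of 0, the unadjusted intervals of Htr1a, Drd5 and Chrm2 exclude 0, and Chrna4 crosses 0 in both alternatives.

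Groups that do not overlap were seen for 6 of 47 receptor genes with any count (12.8%), each lower in sgNr2f2: Htr1a, Htr5a, Drd5, Adra2a, Adrb3 and Chrna7. Of all detected symbols 3.56% did so on the lower side and 2.84% on the higher, where no receptor gene did. Among the 25 past the filter 3 were separated on the lower side (3.9% of all genes past it) and 0 on the higher (4.41%). When counts were set against those of the pan-neuronal genes, 7 of 47 (14.9%) were separated, the same 6 and Chrm2, against 1.42% of all detected symbols lower and 3.26% higher. Most of these genes had few counts.

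Among serotonin receptors, Htr2c carried most of the signal. It encodes a Gq-coupled receptor of forebrain neurons, also known for its very high level in the choroid plexus (chromosome X, 146962464 to 147197277, mm10). Its level was 21.6, 14.2, 24.4 and 3.68 CPM in sgRosa replicates 1 to 4, against 6.42, 8.97 and 7.51 CPM in those of sgNr2f2. Replicates 1 to 3 of sgRosa were above every sgNr2f2 library, and sgRosa replicate 4 was below all of them. With all libraries the log2 fold change was -1.07 (SE 0.58, 95% confidence interval -2.36 to 0.23, edgeR adjusted p = 0.868). Without sgRosa replicate 4 it was -1.39, and the gene passed with DESeq2 (adjusted p = 0.0112) but not with edgeR (adjusted p = 0.235). In that edgeR fit it was the 1 receptor gene with an unadjusted p under 0.05, against 4.88% of all genes lower and 6.41% higher. It was then the only 1 of 19 receptor genes called by DESeq2, which called 0.824% of all genes lower and 1.82% higher without that library. The 10 choroid plexus genes summed to 25.5, 948, 14.1 and 99.3 CPM in sgRosa against 550, 123 and 67.4 CPM in sgNr2f2. The lowest of these sums were those of sgRosa replicates 3 and 1, which had the most Htr2c. Among the 10 genes, 1 to 3 were at 0 in 4 of the 7 libraries, and their part in the level of Htr2c was not tested.

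Htr1a encodes the Gi-coupled receptor that is the autoreceptor of serotonin neurons and an inhibitory receptor of forebrain neurons (chromosome 13, 105443693 to 105448133). It had 68, 9, 13 and 15 counts in sgRosa and 0, 6 and 0 in sgNr2f2, or 1.65 ± 1.22 CPM (SD, n = 4) and 0.112 ± 0.194 CPM (n = 3). Every sgRosa library was above every sgNr2f2 library, though the lowest sgRosa level, 0.487 CPM, was close to the highest sgNr2f2 level, 0.336 CPM. Its log2 fold change was -3.76 (SE 1.33, edgeR adjusted p = 0.868). Without sgRosa replicate 1, 3 or 4 the gene no longer passed the low-count filter. The fold change was -3.21 to -4.06 on the log2 scale without sgRosa replicate 2 or sgNr2f2 replicate 1 or 3. Without sgNr2f2 replicate 2 that group had 0 counts, and the fitted value of -7.71 then depends on the prior count and is no estimate of size.

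Htr4, a Gs-coupled receptor gene, had 12, 7, 7 and 116 counts in sgRosa and 9, 7 and 12 in sgNr2f2. Its level in sgRosa replicate 4 was 15.8 CPM, while the other 6 libraries lay between 0.379 and 0.726 CPM. The log2 fold change of -2.90 (SE 1.39) therefore came from that library, and the mean of the other sgRosa libraries, 0.473 CPM, was below the sgNr2f2 mean of 0.555 CPM. Htr4 made up 49.4% of the serotonin receptor counts in sgRosa replicate 4 and at most 5.58% elsewhere, whereas Htr2c made up 11.5% there and 57.7 to 76.7% elsewhere.

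Htr7, another Gs-coupled receptor gene, varied little within sgRosa, at 3.38, 2.17, 2.86 and 2.86 CPM, and lay at 2.36, 1.79 and 0.242 CPM in sgNr2f2. The groups overlapped (log2 fold change -0.94, SE 0.73), and without sgNr2f2 replicate 3 the value was -0.43. Htr2a, the Gq-coupled receptor on which serotonergic hallucinogens act, lay at 1.55, 1.14, 0.952 and 0 CPM in sgRosa against 0.363, 2.41 and 0.666 CPM in sgNr2f2. Its log2 fold change of 0.29 (SE 1.04) took the other sign, -0.08 and -0.85, without sgRosa replicate 4 or sgNr2f2 replicate 2.

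The other 9 serotonin receptor genes were below the filter. Htr5a, a Gi-coupled receptor gene, had 7, 4, 10 and 13 counts in sgRosa and 0, 1 and 2 in sgNr2f2, without overlap. Htr3a, the channel subunit that marks interneurons from the caudal ganglionic eminence, a lineage that also expresses Nr2f2, had 10, 0, 4 and 0 counts in sgRosa and 0 in each sgNr2f2 library. The sgRosa level was 3.84-fold above a floor of 3 counts over the sgNr2f2 group, and 1.67-fold without sgRosa replicate 1. These ratios leave out the spread within sgRosa, where replicates 2 and 4 were also at 0, so they are no lower bounds. The partner gene Htr3b had 1 count in all. Other markers of those interneurons (9 genes, among them Cnr1, Reln and Ndnf) summed to 66.8 to 208 CPM in sgRosa against 34.5 to 52.4 CPM in sgNr2f2. Of these, 8 passed the filter, each with a log2 fold change below 0 and 0 called, where 56.2% of all genes tested were below 0. Other cell type lists did the same, with 8 of 8 pericyte and smooth muscle genes and 7 of 7 meningeal fibroblast genes below 0. Without sgRosa replicate 4 the 8 interneuron genes stayed below 0, but their median went from -1.54 to -0.89 and Npas1 from -1.64 to -0.01. Vip, below the filter, had 84, 3, 4 and 2 counts in sgRosa and 0, 3 and 0 in sgNr2f2, so only sgRosa replicate 1 stood above the rest. The part of these interneurons in the receptor levels was not tested. Htr1d had 26 of its 43 counts in sgRosa replicate 4. Htr1f, Htr6, Htr2b and Htr1b had 49, 34, 40 and 8 counts over all libraries, with overlapping groups. Htr2b lies within the span of the much more abundant proteasome gene Psmd1. Whether their exons overlap was not examined, so reads of the pair may have been exchanged if strand was not used in counting.

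**Figure D4:**
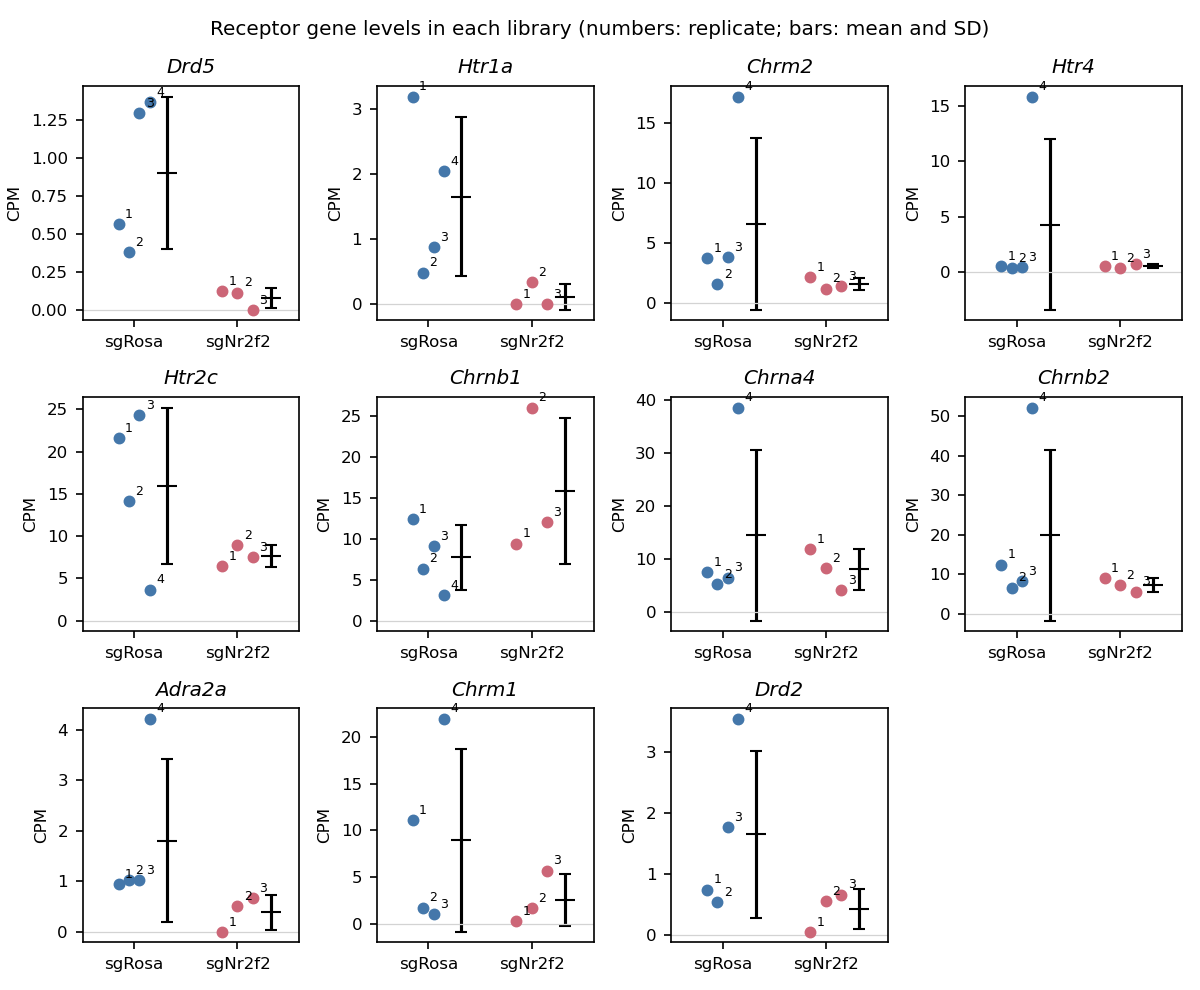
Level in CPM (y axis) of 11 receptor genes in each sgRosa (blue) and sgNr2f2 (red) library, labelled by replicate number, with the mean and SD of each group in black. Drd5, Htr1a and Adra2a are separated between groups. For Drd5 and Adra2a, and for Htr4, Chrm2, Chrna4, Chrnb2, Chrm1 and Drd2, the highest point is sgRosa replicate 4.

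Dopamine receptor transcripts were scarcer still, with 2.02, 1.14, 3.13 and 5.31 CPM for the 5 genes together in sgRosa and 0.182, 0.841 and 0.969 CPM in sgNr2f2. The summed level did not overlap between the groups. This also held for the sum of the serotonin receptor genes (22.3 to 32.3 CPM in sgRosa against 10.7 to 15.1 CPM in sgNr2f2), while the adrenergic, muscarinic and nicotinic sums overlapped. How often sums of other genes are separated was not computed. Drd5, the gene of the Gs-coupled D5 receptor (chromosome 5, 38319509 to 38322523), had the smallest p of the 25 receptor genes in the edgeR fit, while Htr1a had the smallest with DESeq2 (adjusted p = 0.219 against 0.255 for Drd5). It had 12, 7, 19 and 10 counts in sgRosa and 2, 2 and 0 in sgNr2f2, or 0.899 ± 0.501 CPM (n = 4) and 0.0778 ± 0.0675 CPM (n = 3). This gave a log2 fold change of -3.37 (SE 1.12, 95% confidence interval -5.86 to -0.88), with an edgeR p of 0.0128 and an adjusted p of 0.868. Without sgRosa replicate 1, 3 or 4 Drd5 was also below the low-count filter, and leaving out any other library gave -3.77 to -2.83. Per 100000 pan-neuronal counts it was at 53.8, 46.3, 115 and 32.9 in sgRosa and 10.3, 14.1 and 0 in sgNr2f2, and the lowest sgRosa value, that of replicate 4, was still above the highest of sgNr2f2.

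Drd2, the Gi-coupled receptor of striatopallidal and dopamine neurons, lay at 0.750, 0.541, 1.77 and 3.54 CPM in sgRosa against 0.0606, 0.561 and 0.666 CPM in sgNr2f2. These groups overlapped at their edges, and the log2 fold change of -1.89 (SE 1.01) was -1.22 without sgRosa replicate 4. Drd1, the main Gs-coupled dopamine receptor of the striatum, had only 0 to 9 counts per library. Drd3 had 7 counts in sgRosa, 6 of them in replicate 1, and Drd4 had 2 counts in all.

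Among the adrenergic receptors, the β receptors couple to Gs. The level of Adrb1, the β1 receptor gene, was 2.72, 0.975, 0.952 and 12.4 CPM in sgRosa against 0.545, 1.63 and 2.36 CPM in sgNr2f2, with the peak in sgRosa replicate 4 and overlapping groups otherwise. The log2 fold change went from -1.46 to -0.04 without that library. Adrb3, the β3 receptor gene, was below the filter with 5, 5, 5 and 19 counts in sgRosa and 0, 1 and 0 in sgNr2f2, and the groups did not overlap.

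The α1 receptors couple to Gq. Adra1a lay at 3.33, 1.62, 2.11 and 11.0 CPM in sgRosa against 1.70, 0.785 and 2.12 CPM in sgNr2f2, and its log2 fold change of -1.54 (SE 0.78) was -0.62 without sgRosa replicate 4. Adra1b was more even and not lower: 2.44, 2.38, 2.18 and 3.13 CPM in sgRosa against 4.60, 1.23 and 4.60 CPM in sgNr2f2 (log2 fold change 0.46, SE 0.58). The sgNr2f2 libraries lay on both sides of the sgRosa range. Adra1d had 35, 2, 2 and 14 counts in sgRosa and 19, 0 and 2 in sgNr2f2.

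The α2 receptors couple to Gi and act as autoreceptors of noradrenaline neurons and on target cells. Adra2a lay at 0.938, 1.03, 1.02 and 4.22 CPM in sgRosa against 0, 0.505 and 0.666 CPM in sgNr2f2, without overlap. Its log2 fold change was -2.15 (SE 1.13, edgeR adjusted p = 0.868), and -1.33 without sgRosa replicate 4. Scaled to pan-neuronal genes, the 4 sgRosa libraries were close together, at 89.6 to 126 per 100000 counts, and the sgNr2f2 libraries lay at 0, 63.5 and 61.4. Adra2c lay at 0.750, 0.541, 1.09 and 0 CPM in sgRosa against 0.303, 0.673 and 1.21 CPM in sgNr2f2, and Adra2b had 28 counts in sgNr2f2 replicate 1 and 0 in the other 2 libraries of that group.

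Muscarinic receptors are the G protein-coupled acetylcholine receptors, Gq-coupled for Chrm1, Chrm3 and Chrm5 and Gi-coupled for Chrm2 and Chrm4. All 5 passed the filter and all 5 had a lower mean in sgNr2f2, but none passed the adjusted test. Chrm2 (chromosome 6, 36387991 to 36528638) lay at 3.70, 1.57, 3.81 and 17.2 CPM in sgRosa against 2.12, 1.18 and 1.39 CPM in sgNr2f2. Only sgRosa replicate 2 fell within the range of sgNr2f2. For Chrm2 the log2 fold change was -2.05 (SE 0.81, 95% confidence interval -3.85 to -0.24, edgeR adjusted p = 0.868) and -0.95 without sgRosa replicate 4. On the pan-neuronal scale the spread of sgRosa was smaller and the groups parted, with 354, 192, 338 and 414 in sgRosa and 180, 148 and 128 in sgNr2f2 per 100000 counts.

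Chrm1, the M1 receptor of excitatory forebrain neurons, was among the most variable members. Its level was 11.1, 1.73, 1.02 and 21.9 CPM in sgRosa against 0.242, 1.68 and 5.69 CPM in sgNr2f2. Its log2 fold change was -1.80 (SE 1.16), -0.87 without sgRosa replicate 4 and -3.18 without sgNr2f2 replicate 3. The 8 excitatory neuron genes (Slc17a7, Camk2a and others) summed to 268, 74.0, 59.2 and 451 CPM in sgRosa against 140, 38.0 and 126 CPM in sgNr2f2. In both measures sgRosa replicates 4 and 1 were the highest. In sgNr2f2 replicate 1, with a sum above those of sgRosa replicates 2 and 3, Chrm1 was at its lowest. Up to 3 of these 8 genes were at 0 in a library, and their part in the level of Chrm1 was not tested.

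Chrm3 had 73, 24, 22 and 20 counts in sgRosa and 9, 11 and 26 in sgNr2f2, and in CPM sgNr2f2 replicate 3 was inside the sgRosa range. Its log2 fold change of -1.29 (SE 0.72) was -1.19 without sgRosa replicate 4. Chrm4 had 14, 1, 3 and 5 counts in sgRosa and 0, 0 and 12 in sgNr2f2. Chrm5 had 4, 29, 5 and 14 and 0, 17 and 0 counts. Its span, introns included, shares 43479 bases with that of Aven, a cell death inhibitor gene with 944 counts over all libraries.

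Nicotinic receptors of the brain are mostly pentamers of α4 and β2 subunits. Chrna4 lay at 7.55, 5.31, 6.53 and 38.6 CPM in sgRosa against 11.9, 8.35 and 4.12 CPM in sgNr2f2. Chrnb2 lay at 12.5, 6.66, 8.30 and 52.2 CPM in sgRosa against 9.08, 7.23 and 5.63 CPM in sgNr2f2. Both genes peaked in sgRosa replicate 4, and the other 6 libraries overlapped. The log2 fold change of Chrna4 was -0.82 (SE 0.74) with all libraries and 0.33 without that one, and that of Chrnb2 was -1.43 (SE 0.72) and -0.32. On the pan-neuronal scale sgRosa replicate 4 was no longer far away: Chrna4 was at 579 to 931 in sgRosa and 380 to 1052 in sgNr2f2 per 100000 counts, and Chrnb2 at 736 to 1260 and 519 to 911.

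Chrna7 encodes the α7 subunit, which forms homomeric, calcium-permeable receptors (chromosome 7, 63098692 to 63212526). It had 9, 2, 10 and 4 counts in sgRosa and 0 in all 3 sgNr2f2 libraries. Its sgRosa level was 6.86-fold above the floor of 3 counts over the sgNr2f2 group, and 5.40-fold without sgRosa replicate 3, which had the most counts. These ratios leave out the spread within sgRosa and are no lower bounds. The gene was below the low-count filter, and, across the table, 17.6% of all detected symbols had counts only in sgRosa.

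Chrnb1 encodes the β1 subunit, known from the receptor of skeletal muscle, and was the member with the largest difference on the higher side (chromosome 11, 69784036 to 69795966). Its level was 12.4, 6.39, 9.11 and 3.13 CPM in sgRosa against 9.45, 26.1 and 12.1 CPM in sgNr2f2. The groups overlapped, and the log2 fold change of 1.02 (SE 0.54, edgeR adjusted p = 0.868) was 0.47 without sgNr2f2 replicate 2. The other muscle subunits were nearly absent, with 3 counts for Chrna1, 1 for Chrnd, 3 for Chrne and 0 for Chrng in all. Chrnb1 was highest in sgNr2f2 replicate 2 and next in sgRosa replicate 1, the libraries with the highest sums of 8 endothelial genes, 7210 and 6782 CPM against 2900 to 4772 CPM in the other 5. Other libraries did not follow that order. In sgRosa replicate 4, with the next highest sum (4772 CPM), Chrnb1 was at its lowest, 3.13 CPM. In sgNr2f2 replicate 3, with a sum of 3505 CPM, Chrnb1 (12.1 CPM) was close to its level in sgRosa replicate 1 (12.4 CPM). None of these endothelial genes was at 0 in any library, and their part in the level of Chrnb1 was not tested.

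Another set of nicotinic genes was high in single libraries. Chrna3 and Chrnb4, subunits that are abundant in the medial habenula and in autonomic ganglia, lie beside Chrna5 on chromosome 9, and Chrna3 and Chrna5 share 1304 bases, so their reads may have been exchanged. Chrna3 had 20, 110, 18 and 13 counts in sgRosa and 0, 5 and 45 in sgNr2f2. Chrnb4 had 27 of its 32 counts in sgRosa replicate 2, and Chrna5 had 22 counts over all libraries. Htr5b, a serotonin receptor gene known from the habenula, had 2, 35, 0 and 2 counts in sgRosa and 0, 0 and 40 in sgNr2f2. Gpr151, a habenular orphan receptor gene chosen for display after its values were seen, had 43, 116, 9 and 0 and 0, 0 and 38 counts. For all 4 of Chrna3, Chrnb4, Htr5b and Gpr151 the sgRosa library with the most counts was replicate 2 and the sgNr2f2 library replicate 3. The 5 habenula marker genes summed to 13.1 to 42.9 CPM in sgRosa against 12.2 to 25.9 CPM in sgNr2f2, and Gpr151 and Pou4f1 were at 0 in sgRosa replicate 4 and sgNr2f2 replicate 1 (Gpr151 also in sgNr2f2 replicate 2). The other habenula markers did not share this pattern as a set: Tac2 (19.5 CPM) and Gng8 (20.4 CPM) were highest in sgRosa replicate 4, Gng8 was highest within sgNr2f2 in replicate 1, and within sgRosa Pou4f1 was highest in replicate 3, while Lrrc55 was highest in replicates 2 and 3 of the respective groups. The list's sum was highest in sgRosa replicate 4. Whether tissue beside the amygdala entered these libraries was not tested.

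Chrna6 and Chrnb3 encode subunits that are abundant in midbrain dopamine neurons. Chrna6 had 4, 2, 22 and 2 counts in sgRosa and 11, 11 and 10 in sgNr2f2. Chrnb3 had 13, 56, 57 and 2 counts in sgRosa and 16, 2 and 16 in sgNr2f2, or 1.95 ± 1.78 and 0.683 ± 0.495 CPM (log2 fold change -1.52, SE 1.05). Both were highest in sgRosa replicate 3, as was Slc6a3, the dopamine transporter gene, with 0, 67, 292 and 1 and 84, 101 and 27 counts (also named after its values were seen). Th, another gene of dopamine neurons, was highest in sgRosa replicate 4, at 29.4 CPM against 13.7 CPM in replicate 3. Within sgNr2f2, Slc6a3 was highest in replicate 2, where Chrnb3 was lowest. Chrna2 had 24 of its 35 counts in sgRosa replicate 4, and Chrna9 had 1 count.

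**Figure D5:**
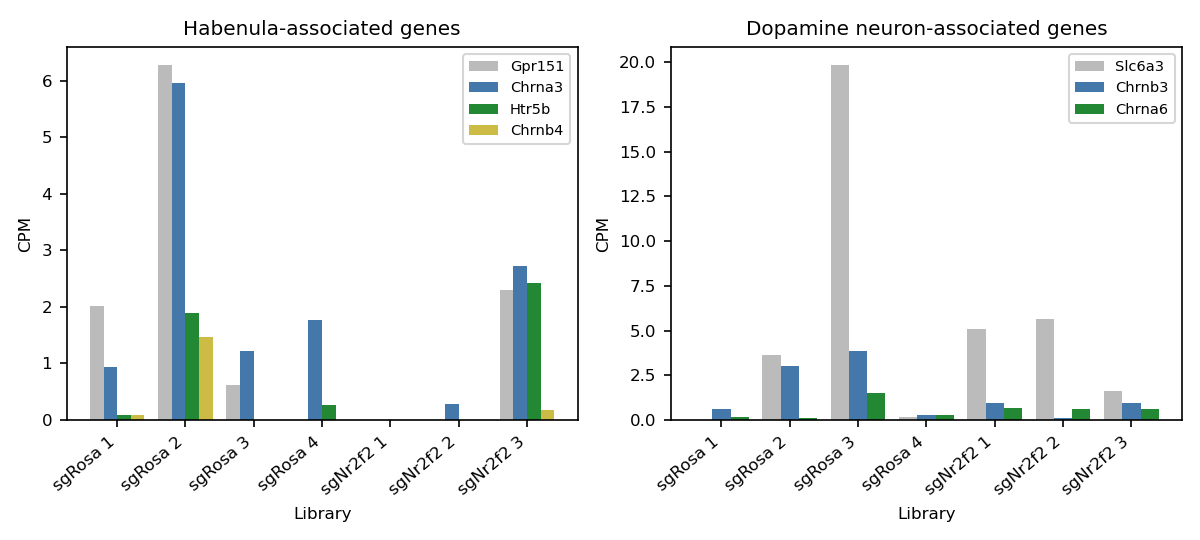
Level in CPM (y axis) of receptor genes beside a gene of the same brain region (grey), in each library (x axis). The left panel shows Gpr151 with Chrna3, Htr5b and Chrnb4, all high in sgRosa replicate 2, and the right panel shows Slc6a3 with Chrnb3 and Chrna6, all highest in sgRosa replicate 3. Gpr151 and Slc6a3 were chosen for this pattern, and other markers (Tac2, Gng8, Pou4f1 and Th) peak in other libraries.

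The genes that make, carry and break down these transmitters were taken from pathway lists. Of the 17 monoamine genes, 9 passed the filter and 0 passed edgeR's adjusted test in either direction. Th, the rate-limiting enzyme of catecholamine synthesis, lay at 12.5 ± 12.4 CPM in sgRosa against 4.12 ± 3.34 CPM in sgNr2f2 (log2 fold change -1.59, SE 0.97, and -0.73 without sgRosa replicate 4). Maob, a monoamine oxidase gene, lay at 37.6 ± 8.71 and 28.4 ± 8.60 CPM, and Slc29a4, which encodes a monoamine transporter, at 7.91 ± 7.71 and 4.76 ± 1.85 CPM. The log2 fold change of Slc29a4 turned from -0.72 to 0.22 without sgRosa replicate 4. Dbh and Slc6a2, which mark noradrenaline neurons, were at 0 in every library.

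Of 5 acetylcholine genes 3 passed the filter, and 0 passed the adjusted test. Ache, the acetylcholine esterase gene, had 3459 counts in sgRosa replicate 4, while the other libraries had 180 to 754, so that its log2 fold change of -2.56 (SE 1.14) was -0.30 without that library. Slc5a7, the choline transporter of cholinergic terminals, lay at 3.34 ± 2.00 and 1.16 ± 1.06 CPM with a log2 fold change of -1.51 (SE 0.92), and Bche, the butyrylcholinesterase gene, at 20.6 ± 12.3 and 19.6 ± 12.02 CPM. For Bche the log2 fold change was -0.08, or -0.45 when that library was left out. The synthetic enzyme gene Chat had 0 to 22 counts per library.

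Of 9 genes for nicotinic receptor chaperones and prototoxins, 8 passed the filter and 0 the adjusted test, and all 8 were on the lower side (6 of 8 without sgRosa replicate 4). Ric3, a chaperone that receptors of the α7 type need to reach the surface, had 258, 163, 139 and 110 counts in sgRosa and 46, 98 and 123 in sgNr2f2, or 11.3 ± 2.81 and 5.24 ± 2.34 CPM (log2 fold change -1.11, SE 0.47, edgeR adjusted p = 0.868). Without sgRosa replicate 4 its log2 fold change was -0.95. Ly6h, a prototoxin gene, went from -2.60 to -0.43 without that library, Lypd1 from -1.03 to -0.56 and Ly6e from -0.91 to -0.12.

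Downstream of the G proteins, 29 of 30 genes passed the filter and 0 passed the adjusted test. Of these 29, 10 had a log2 fold change below 0 and 19 above it, with a median log2 fold change of 0.10. Prkaca, a catalytic subunit of the cyclic AMP-dependent kinase, lay at 15.7 ± 8.16 CPM in sgRosa against 38.4 ± 10.01 CPM in sgNr2f2 (log2 fold change 1.28, SE 0.47, edgeR adjusted p = 0.868). Adcy5, an adenylyl cyclase gene, lay at 10.8 ± 5.34 and 18.5 ± 9.04 CPM, Adcy2, another of that family, at 7.12 ± 6.84 and 2.49 ± 0.977 CPM, and Gnaz, a Gi-family subunit gene, at 22.9 ± 27.8 and 9.62 ± 2.13 CPM. Leaving out sgRosa replicate 4 took Adcy2 from a log2 fold change of -1.50 to -0.62 and turned that of Gnaz from -1.24 to 0.088.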

How the data were processed

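The authors deposited raw read counts per gene symbol for 7 libraries, as 1 table and 7 single files with the same values. Per the submitters' processing notes the tools were fastp 0.23.2, STAR 2.7.5c, featureCounts 2.0.1 and edgeR 3.42.4 on mm10. How strand and multi-mapping reads were treated, and which annotation was counted, is not given in the sources used here. PCR reads without molecular identifiers are not independent molecules, so floors cover counting error only.

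The members and gene lists were chosen with earlier results of these data known. Counts were tested with edgeR 4.0.16 in R 4.3.3 (filterByExpr, TMM, quasi-likelihood F test, group as the only term) on 14412 genes, with Benjamini-Hochberg adjustment over all of them at 0.05. DESeq2 1.42.0 and limma 3.58.1 (voom) were alternatives, as were no filter, scaling by library size alone or by 15 pan-neuronal genes, a replicate block, and leaving out each library. The fits were tested on simulated counts. CPM values were divided by TMM-scaled library sizes and are given as mean ± SD. Exon lengths come from GENCODE M21 and coordinates from RefSeq (GRCm38.p6); both matched 49 of 49 symbols. Of the 49 genes, 21 overlap another annotated gene by start-to-end span, introns included, and overlap of exons was not examined. Libraries are given in full for members with the 12 smallest p, the 10 highest mean CPM or groups that do not overlap, and for others where shown. From each pathway list the 4 genes of smallest p are named; genes outside that rule are marked where they stand. Expected detection at equal depth is the hypergeometric expectation. Values of 1 receptor gene and 1 pathway gene that these rules name are not reported here; both stay in the fits and counts.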

Additional observations from a re-analysis of the deposited data

Results flagged for a closer look

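For each of the 25 receptor genes past the filter, the highest and lowest of the 4 sgRosa libraries were compared with their neighbours, and in 8 genes 1 library lay far from the others by Dixon's test. Chance flags about 1 in 20 groups. The group of 3 sgNr2f2 libraries is too small for this test. In 6 of the 8 genes the high library was sgRosa replicate 4, which also had the highest pan-neuronal and erythroid sums. Its level was 15.8 CPM for Htr4 (others 0.379 to 0.563), 4.22 CPM for Adra2a (0.938 to 1.03), 12.4 CPM for Adrb1 (0.952 to 2.72), 17.2 CPM for Chrm2 (1.57 to 3.81), 38.6 CPM for Chrna4 (5.31 to 7.55) and 52.2 CPM for Chrnb2 (6.66 to 12.5). Chrna3 stood out in sgRosa replicate 2, at 5.96 CPM against 0.938 to 1.77 CPM. Chrna6 stood out in sgRosa replicate 3, at 1.496 CPM against 0.108 to 0.273 CPM. The cause was not tested.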

How the results depend on the processing

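Of 338 alternative values for single receptor genes, 319 kept their direction and side of the threshold and 18, in 5 genes, took the other sign. Fits in which a gene no longer passed the filter (Htr1a, Drd5, Htr4 and others) gave no value and are not among the 338. No receptor gene passed the threshold in the main fit, so keeping its side only means that the gene was again not called. Over all genes edgeR called 0, DESeq2 called 7, and DESeq2 without sgRosa replicate 4 called 372, among them 1 receptor gene (Htr2c). With no low-count filter 38 receptor genes lay on the lower side. The median log2 fold change over all receptor genes tested was -0.73 scaled to pan-neuronal genes and -0.67 with a replicate block, in which 19 were tested. The fit of replicates 1 to 3 without the block is the same fit as that without sgRosa replicate 4. Its 19 values, 3 of them with the other sign, are therefore counted again among the 338. Htr2a (0.29) was -0.46 with the replicate block, -0.081 without it in replicates 1 to 3 (chosen after seeing the data) and -0.037 by DESeq2 without sgRosa replicate 4. Adra2c (0.24) was -0.25, -0.12 and -0.093 in these fits. Chrna4 (-0.82) was 0.23, 0.33 and 0.36, and 0.18 scaled to pan-neuronal genes, and Adrb1 (-1.46) was 0.0021 with the block. Leaving out 1 library gave -0.85 to 0.72 for Htr2a, -0.31 to 0.69 for Adra2c, -1.20 to 0.33 for Chrna4 and -0.037 to 0.31 for Chrna6. The cause was not tested. The labels give no pairing of same-numbered libraries. Deviations of such libraries correlated at -0.27, -0.33 and 0.06, and the block called 0 genes, as did every other edgeR fit. With 3 libraries per group these values cannot decide whether the numbers mark pairs. The 24 receptor genes below the filter have too few counts for a test in the main fit.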
